A study of Mus musculus with 16 samples.

Results

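The complement genes C1qa, C1qb, C1qc, C3, C4b, Cfb, Serping1, C3ar1 and Cd55 were measured in RNA from B16F10 melanoma allografts of lean and obese mice before and after chemotherapy. The 9 genes were taken by their symbols from the 45777 genes listed, and all 9 had a count above 0 in each of the 16 tumors, as had 16209 genes in all. B16F10, a melanoma cell line of C57BL/6 origin, had been injected under the skin of C57BL/6J wild-type mice (lean tumors) and of C57BL/6J-ob/ob mice (obese tumors), which lack leptin and become obese from the loss of this single hormone. Mice of both genotypes were 6 weeks old at injection, and each genotype gave 4 tumors before therapy and 4 after etoposide (ETS). ETS, which inhibits a topoisomerase, was given in 5 injections of 20 mg per kg. The labels name the groups ctrl and ETS, which the study describes as before and after chemotherapy. When the tumors before therapy were taken is not stated in the sources used here, so time of growth and ETS cannot be told apart. A fall or rise after ETS below is a difference between groups of tumors. Host cells were not removed from the tumors, so fewer cells of a type and less RNA per cell cannot be told apart in any value below, and nothing in the labels says which tumors came from separate animals.

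Complement is a cascade of blood and tissue proteins that tags cells, debris and microbes for uptake and calls in leukocytes. The classical pathway starts when C1q, a hexamer of A, B and C chains, binds antibody or dying cells and C4 is cleaved, the alternative pathway is amplified by factor B, and both converge on C3. Liver makes most of the plasma proteins, whereas in tissues C1q comes mainly from macrophages, and C3, C4, factor B and the C1 inhibitor are also made by fibroblasts and by cells responding to interferon.

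Levels are given as TMM-scaled CPM, the count of a gene relative to its library's total, and levels of different genes are compared only per transcript length, as the deposited TPM. Total counts per tumor ranged from 47199949 to 61655287, and tumors of a group correlated at 0.970 to 0.992 on the log2 CPM scale. A gene was called when edgeR's quasi-likelihood test gave an adjusted p under 0.05 over all 16209 genes in a fit with all 16 tumors. The melanocyte marker sum, over 8 genes, was high in every tumor, with group medians of 13567 to 24566 CPM. The hepatocyte marker sum, over 8 genes, was at most 1.79 CPM in any tumor, with Tat at 0 in all tumors of every group.

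Per transcript length, the 3 C1q chains were the highest of the 9 genes and Cd55 the lowest. Averaged over the 16 tumors, TPM was 153 for C1qa, 145 for C1qc, 132 for C1qb, 53.9 for C4b, 36.7 for Serping1, 20.3 for Cfb, 9.88 for C3ar1, 8.98 for C3 and 0.399 for Cd55. A C1q chain was highest in 14 tumors and C4b in the other 2, while Cd55 was lowest in all 16. The 3 chains differed from each other by less than their spread over tumors, with a ratio of C1qa to C1qb TPM from 0.902 to 1.61 and of C1qc to C1qb TPM from 0.861 to 1.27. C3ar1 and C3 also changed places between groups, C3 having the higher mean TPM of the pair only in obese tumors before therapy.

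The change after ETS of most of the 9 genes ran in opposite directions in the 2 hosts. Before therapy all 9 were lower in obese than in lean tumors, by 6.87-fold to 12.4-fold. After ETS 7 of the 9 fell in lean tumors and 8 of the 9 rose in obese tumors. No member was called different between hosts after ETS. Of the 9 differences then, obese minus lean, 8 were positive, with a median of 1.59 on the log2 scale. C4b stood at a similar level in lean tumors before and after ETS, and the rise of C3 in obese tumors did not pass the test. The plot of CPM by tumor shows these values.

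**Figure D1:**
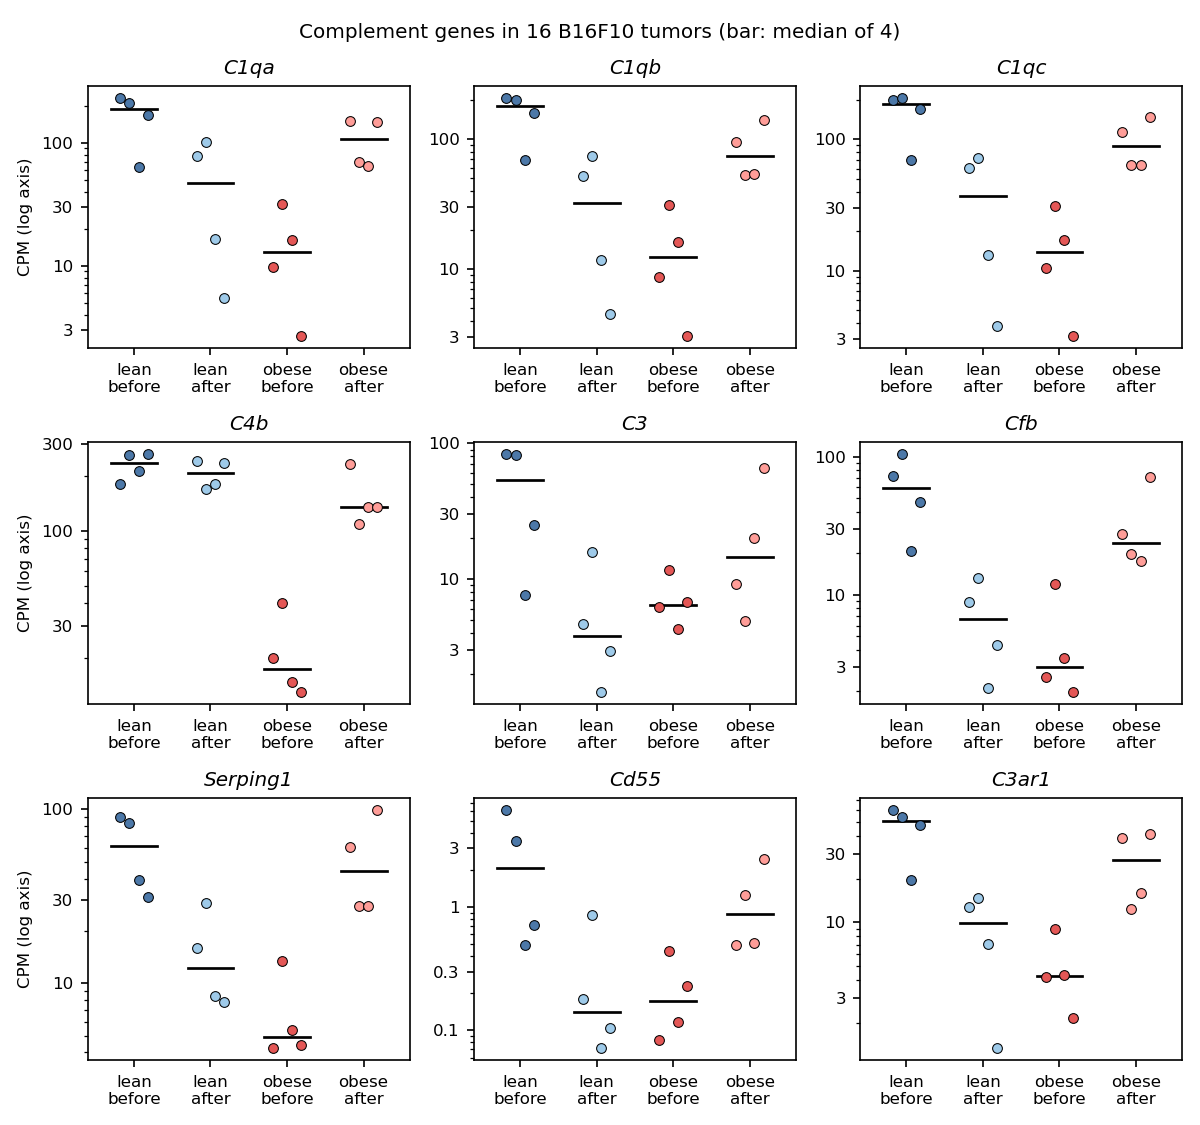
CPM (log axis) of each of the 9 complement genes in lean and obese B16F10 tumors before therapy and after ETS, with a point for each of 4 tumors per group and a bar at their median. The obese tumors before therapy lie below all lean tumors before therapy for 8 of the 9 genes, C3 being the exception, and the lean tumors of C4b after ETS (169.9 to 243 CPM) stand at the height of those before.

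The C1q chains are encoded next to each other on chromosome 4 (GRCm38.p6, minus strand), C1qb at chr4:136880126-136886200, C1qc at chr4:136889801-136892936 and C1qa at chr4:136895916-136898844. In lean tumors 1 to 4, C1qa stood at 232, 210.1, 64.1 and 167 CPM before therapy and at 77.6, 100.8, 16.7 and 5.48 CPM after ETS. In obese tumors 1 to 4, it stood at 9.82, 31.9, 16.1 and 2.68 CPM before therapy and at 149.5, 69.2, 65.3 and 147 CPM after ETS. The lean groups overlapped through the third tumor before therapy, whereas every obese tumor after ETS was above every obese tumor before. The log2 fold change after ETS was -1.75 ± 0.77 (SE) in lean tumors (adjusted p = 0.0764 by edgeR, not called) and 2.83 ± 0.80 in obese tumors (adjusted p = 0.0121). Of 25 alternatives, 5 called the lean change of C1qa. Without the second lean tumor after ETS it was -2.36 with an adjusted p of 0.0409. Limma-voom gave -3.03 (adjusted p = 0.00148), edgeR's exact test -1.75 (0.0469) and the replicate number as a block -2.09 (0.0318). Limma on log2(TPM + 1) gave -2.70 with an adjusted p of 0.0112, but there the median of all genes shifted by -0.35.

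C1qb and C1qc, the other chains of the same protein, followed C1qa closely over the 16 tumors (r = 0.99 for each on log2 CPM). In lean tumors the ratio of C1qa to C1qb TPM was 0.949 to 1.14 before therapy and 1.25 to 1.51 after ETS. That of C1qa to C1qc was 0.902 to 1.14 before and 1.25 to 1.45 after. The lean ranges thus did not overlap for either ratio, while the obese ranges did for both, and this was not tested. C1qb stood at 208, 201, 69.0 and 159 CPM in lean tumors before therapy and at 52.3, 74.8, 11.8 and 4.48 CPM after ETS. In obese tumors C1qb was at 8.74, 30.9, 16.2 and 3.04 CPM before and at 95.0, 52.5, 53.5 and 141 CPM after. Each chain thus spanned more than 10-fold among lean tumors after ETS, tumors 1 and 2 being high and 3 and 4 low. C1qc stood at 199, 207, 69.8 and 171 CPM in lean tumors before therapy and at 61.1, 72.0, 13.2 and 3.80 CPM after. In obese tumors C1qc was at 10.6, 31.1, 17.1 and 3.18 CPM before and at 115, 64.2, 63.6 and 149 CPM after. The obese groups did not overlap for either chain, and the lean groups overlapped for both.

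C1qb fell in lean tumors by 2.15 ± 0.76 on the log2 scale (SE, adjusted p = 0.0309 by edgeR) and C1qc by 2.11 ± 0.75 (adjusted p = 0.0326). Both calls were lost when lean tumor 1, 2 or 4 before therapy or lean tumor 3 or 4 after ETS was left out, with adjusted p-values of 0.0513 to 0.0768 for C1qb and 0.0511 to 0.0809 for C1qc, at log2 changes of -2.15 to -1.78 and -2.08 to -1.73. With only the lean groups in the fit, the adjusted p of C1qc was 0.0528. In obese tumors C1qb rose by 2.54 ± 0.77 (adjusted p = 0.0171) and C1qc by 2.66 ± 0.77 (adjusted p = 0.0132).

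C4b, the mouse gene for complement C4, which the C1 complex cleaves to build the classical C3 convertase, lies at chr17:34728139-34743902 on the minus strand (GRCm38.p6). Its near copy C4a lies on the same chromosome, and 96.1% of the 5367 aligned bases of their longest GENCODE M21 transcripts were identical. Of the 100-base stretches of the C4b transcript, about the length of a read, 16.5% occurred unchanged in that of C4a, and reads from them could have been assigned to either gene. A pair of 30-base stretches of exon 21, where the transcripts differ most, shows what tells the copies apart. They are printed 5′ to 3′ on the minus strand of GRCm38 with the 9 differing bases in capitals, C4b from chr17:34735436-34735465 and C4a from chr17:34816092-34816121.
C4b: aGGtggtggctCGagggGTtttTgattTaG
C4a: aATtggtggctAAagggACtttGgattCaA

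C4b stood at 179.7, 259, 214 and 264 CPM in lean tumors before therapy and at 243, 169.9, 181 and 236 CPM after ETS. In obese tumors C4b was at 20.1, 40.0, 14.8 and 13.0 CPM before and at 232, 108, 135 and 134 CPM after. The lean groups overlapped over most of their range, and all 4 obese tumors before therapy lay far below the other 12. The log2 fold change after ETS was -0.15 ± 0.30 in lean tumors (SE, adjusted p = 0.721 by edgeR) and 2.80 ± 0.33 in obese tumors (adjusted p = 3.88e-05), the smallest adjusted p of the 9 genes. Over the alternatives tried the lean change of C4b ran from -0.51 to -0.07, with adjusted p-values of 0.157 to 0.890. C4a, at 0.0574 to 0.127 of the TPM of C4b, changed by -0.13 ± 0.23 in lean tumors (adjusted p = 0.681) and rose by 2.37 ± 0.25 in obese tumors (adjusted p = 2.16e-05), values that are not independent of C4b where reads are shared.

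C3, the component on which all pathways converge, lies at chr17:57203967-57228136 (minus strand). It stood at 83.6, 82.6, 7.61 and 24.8 CPM in lean tumors before therapy and at 4.63, 15.8, 1.47 and 2.92 CPM after ETS. In obese tumors C3 was at 6.18, 11.7, 4.27 and 6.78 CPM before and at 9.16, 4.88, 19.9 and 65.9 CPM after. Both pairs of groups overlapped, and the spread within groups reached 13.5-fold, in obese tumors after ETS, where the fourth tumor was highest. C3 fell in lean tumors by 3.0 ± 0.90 on the log2 scale (SE, adjusted p = 0.0143 by edgeR), and its change in obese tumors was 1.79 ± 0.86 (adjusted p = 0.111, not called). Leaving out each tumor in turn moved the obese change of C3 between 0.67 and 2.13, with adjusted p-values from 0.0665 to 0.524.

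Cfb encodes factor B, the protease of the alternative C3 convertase, and lies on the same chromosome as C4b, at chr17:34856374-34862514 (minus strand). The GENCODE gene Gm20547 shares 2246 exonic bases with it and 81.0% of the 100-base stretches of its transcript, and Gm20547 is not among the genes listed. Cfb stood at 73.0, 105, 20.8 and 46.7 CPM in lean tumors before therapy and at 8.95, 13.3, 2.13 and 4.36 CPM after ETS. In obese tumors Cfb was at 2.56, 12.1, 3.48 and 1.98 CPM before and at 27.6, 19.9, 17.6 and 71.5 CPM after. Neither pair of groups overlapped, and the second obese tumor before therapy stood apart from the other 3. Cfb fell by 3.10 ± 0.71 in lean tumors on the log2 scale (SE, adjusted p = 0.00296 by edgeR) and rose by 2.77 ± 0.71 in obese tumors (adjusted p = 0.00643). Leaving out any of the 16 tumors kept both calls, at -3.59 to -2.71 in lean and 2.12 to 3.67 in obese tumors.

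Serping1 encodes the C1 inhibitor, which inactivates the proteases C1r and C1s, and lies at chr2:84765360-84775444 (minus strand). It stood at 91.0, 83.7, 39.3 and 31.2 CPM in lean tumors before therapy and at 15.9, 29.0, 8.48 and 7.79 CPM after ETS. In obese tumors Serping1 was at 4.24, 13.5, 5.36 and 4.43 CPM before and at 60.8, 28, 28 and 99.4 CPM after. As for Cfb, the groups did not overlap in either host. Serping1 fell by 2.0 ± 0.55 in lean tumors (SE, log2 scale, adjusted p = 0.00864 by edgeR) and rose by 2.97 ± 0.57 in obese tumors (adjusted p = 0.00112), and both calls were kept without any tumor.

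Cd55 encodes decay-accelerating factor, a membrane protein that takes C3 convertases apart on host cells, and lies at chr1:130429798-130465009 (minus strand). The antisense gene Gm16083 overlaps 102 of its exonic bases, and whether the counting used strand is not stated in the sources used here. Cd55 was the rarest of the 9, with counts of 4 to 371 per tumor. In lean tumors it was at 6.16, 3.43, 0.495 and 0.715 CPM before therapy and at 0.178, 0.859, 0.0716 and 0.105 CPM after ETS. In obese tumors it was at 0.0827, 0.439, 0.117 and 0.230 CPM before and at 0.490, 1.26, 0.510 and 2.47 CPM after. Lean tumors 1 and 2 before therapy were the highest of all, while the obese groups were separated by a narrow gap, from 0.439 to 0.490 CPM.

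On the log2 scale Cd55 fell by 3.17 ± 0.91 in lean tumors (SE, adjusted p = 0.0113 by edgeR) and rose by 2.44 ± 0.93 in obese tumors (adjusted p = 0.0467). The rise of Cd55 in obese tumors was lost when lean tumor 2 before therapy, lean tumor 1 after ETS, obese tumor 1, 3 or 4 before therapy or obese tumor 2 or 4 after ETS was left out, with adjusted p-values of 0.0528 to 0.140 and log2 changes of 1.79 to 2.47. It was also lost with limma-voom (adjusted p = 0.0736), with filterByExpr (0.0524), when genes with zero counts were kept (0.0731) and on log2(TPM + 1) (0.299). On log2(TPM + 1) the lean change of Cd55 was -0.76, with an adjusted p of 0.0533. Its group means were 0.040 to 1.06 TPM, where adding 1 shrinks a log2 change, in this and the other comparisons.

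C3ar1 encodes the receptor for the C3a fragment, found mainly on myeloid cells, and lies at chr6:122847140-122856157 (minus strand). It stood at 60.2, 53.9, 19.6 and 47.6 CPM in lean tumors before therapy and at 12.8, 14.8, 7.12 and 1.35 CPM after ETS. In obese tumors C3ar1 was at 4.18, 8.97, 4.30 and 2.17 CPM before and at 38.5, 12.5, 16.1 and 41.2 CPM after. The groups did not overlap in either host. C3ar1 fell by 2.33 ± 0.61 in lean tumors (SE, log2 scale, adjusted p = 0.00703 by edgeR) and rose by 2.47 ± 0.62 in obese tumors (adjusted p = 0.00623), calls that were kept without any tumor.

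In lean tumors 7 of the 9 genes were called lower after ETS, against 22.8% of all genes tested, and none was called higher (21.0% of all genes). The median log2 change of the 9 was -2.15, and that of all tested genes was -0.01. Groups did not overlap for Cfb, Serping1 and C3ar1, that is 3 of 9, against 20.3% of all genes lying wholly lower after ETS. In obese tumors 8 of the 9 were called higher, against 21.2% of all genes, with a median of 2.66 against 0.01. The obese groups did not overlap for 8 of 9, against 16.4% of all genes lying wholly higher.

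The change after ETS differed between lean and obese tumors for all 9 genes in the test of that difference, against 10.1% of all genes called in the same direction. The lean minus obese difference of log2 changes ran from -2.94 ± 0.44 for C4b (SE, adjusted p = 0.000389 by edgeR) to -5.87 ± 1.0 for Cfb (adjusted p = 0.00105), and the adjusted p of the other 7 lay between 0.00062 for Serping1 and 0.0159 for C3. All 9 calls were kept when any tumor was left out. On log2(TPM + 1) Cd55 was not called, with a difference of -1.20 and an adjusted p of 0.0889.

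**Figure D2:**
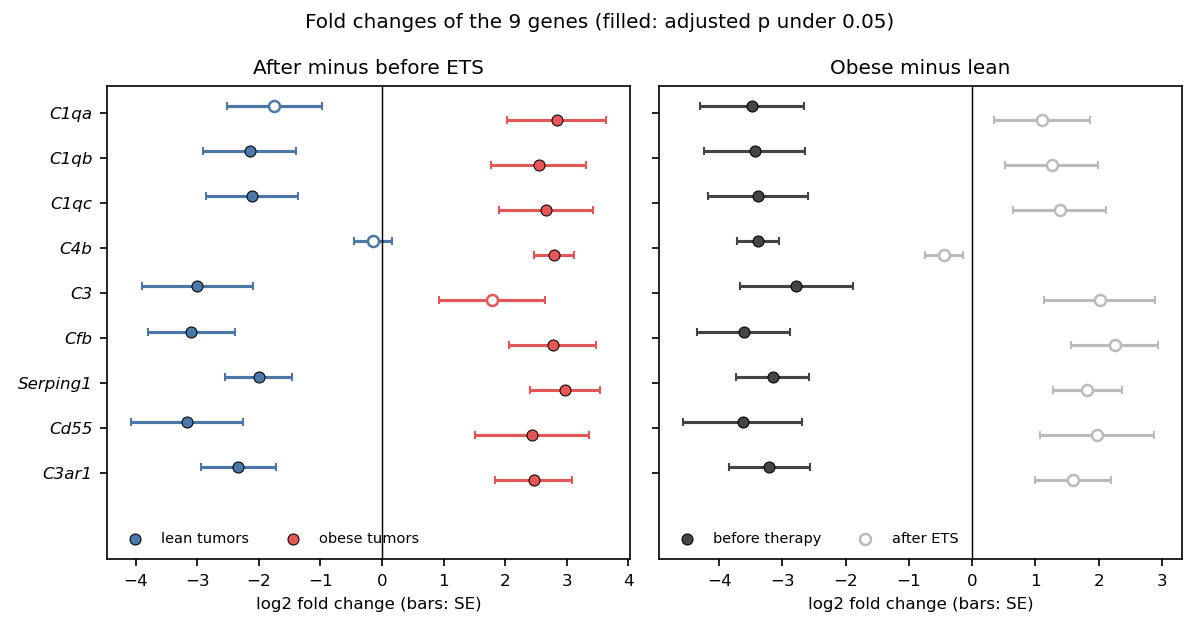
Log2 fold changes of the 9 genes with their SE as bars, after minus before ETS in lean and obese tumors on the left and obese minus lean tumors before therapy and after ETS on the right, with filled points for an adjusted p under 0.05. All 9 lean changes lie left of zero and all 9 obese changes right of it, C4b in lean tumors being nearest to zero at -0.15.

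Before therapy all 9 genes were called lower in obese than in lean tumors, against 12.9% of all genes. The log2 difference, obese minus lean, ran from -2.78 ± 0.89 for C3 (SE, adjusted p = 0.031 by edgeR) to -3.63 ± 0.94 for Cd55 (adjusted p = 0.0101), and that of C4b was -3.39 ± 0.33 (adjusted p = 4.6e-06). The median was -3.39 against 0.02 over all genes. The hosts did not overlap for 8 of the 9, against 14.4% of all genes lying wholly lower, and the exception was C3. The call of C3 was lost when lean tumor 1 or 2 or obese tumor 1, 3 or 4 before therapy was left out, with log2 differences of -2.75 to -2.41 and adjusted p-values of 0.0693 to 0.0866. On log2(TPM + 1) the difference of Cd55 was -0.77, with an adjusted p of 0.0931.

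After ETS no member was called between the hosts by edgeR's quasi-likelihood test, against 5.58% of all genes, while 5 of 9, C3, C3ar1, Cd55, Cfb and Serping1, had an unadjusted p under 0.05. The log2 difference, obese minus lean, was nearest to a call for Serping1, at 1.82 ± 0.55 (SE, adjusted p = 0.0603), and for Cfb, at 2.25 ± 0.69 (adjusted p = 0.0644). These 2 genes were called by edgeR's exact test, DESeq2, limma-voom, limma on log2(TPM + 1) and the fit with replicate number as a block, with adjusted p-values of 0.0158 to 0.0418 for Serping1 and 0.0177 to 0.0452 for Cfb. Cfb was also called without obese tumor 2 before therapy (adjusted p = 0.0472), and Serping1 without lean tumor 2 after ETS (adjusted p = 0.0466) or obese tumor 2 after ETS (adjusted p = 0.0413). The hosts did not overlap for Cfb alone, 1 of 9, against 6.39% of all genes lying wholly higher in obese tumors. C4b had the only negative difference, -0.44 ± 0.30 (adjusted p = 0.384). The comparisons before therapy, after ETS and within a host share tumors, so that the values of a gene in them are not independent.

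Tumors of a group tended to be high or low for the 9 genes together. Obese tumor 2 before therapy was highest of its group for 9 of 9 genes, lean tumor 2 after ETS for 8, and obese tumor 4 after ETS for 7. Lean tumor 3 before therapy was lowest of its group for 7 genes. C4b departed from this order, with lean tumor 2 after ETS, highest for the other 8, being its lowest.

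Macrophage markers moved along with the genes. The sum over 15 markers had a median of 662 CPM (285 to 861) in lean tumors before therapy, 148 CPM (48.3 to 229) after ETS, 89.2 CPM (44.6 to 201) in obese tumors before therapy and 373 CPM (225 to 838) after ETS. Of 12 macrophage markers tested, 10 were called lower after ETS in lean tumors and 8 higher in obese tumors by edgeR, against 22.8% and 21.2% of all genes. The marker sum overlapped between groups only for obese and lean tumors after ETS among the 4 pairs compared. Across the 16 tumors, which fall into groups and share this scaling, log2 CPM of C1qa, C1qb, C1qc and C3ar1 correlated with the log2 marker sum at Pearson's r of 0.96 to 0.98, given as a description. These genes were not alone in this, with r of 0.96 for Cfb, 0.94 for Serping1, 0.86 for Cd55, 0.82 for C3 and 0.57 for C4b.

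The ratio of C1qa, C1qb, C1qc and C3ar1 to the macrophage marker sum was compared between groups by exact two-sided permutation tests over the tumors. There were 16 tests in all, for which 4 against 4 tumors allow no p below 0.0286. In obese tumors before therapy the log2 ratio of C1qa was -3.04 ± 0.70 (SD, n = 4), against -1.91 ± 0.17 in lean tumors before therapy, a difference of -1.12 (exact p = 0.0286, adjusted p = 0.0914). The differences before therapy were -1.08 for C1qb and -1.0 for C1qc (exact p = 0.0286, adjusted p = 0.0914 for each), and -0.59 for C3ar1 (exact p = 0.114, adjusted p = 0.261). In obese tumors the difference after minus before ETS was 1.03 for C1qa and 0.69 for C1qb (exact p = 0.0286, adjusted p = 0.0914 for each), 0.80 for C1qc (exact p = 0.0571, adjusted p = 0.152) and 0.28 for C3ar1 (exact p = 0.371, adjusted p = 0.582). None of the 16 passed after adjustment. The lowest possible p was reached in 5 tests, too few for the adjustment to bring any of them under 0.05. A test at this lowest p could therefore not pass here, and the lack of a call decides nothing. In lean tumors after ETS the differences were -0.52 to -0.12, with exact p-values of 0.286 to 0.886. With Lyz2 left out of the marker sum, 12 of the 16 results were the same, 2 were stronger and 2 weaker. In the plot against the macrophage marker sum, obese tumors before therapy lie at its lower end together with lean tumors 3 and 4 after ETS.

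**Figure D3:**
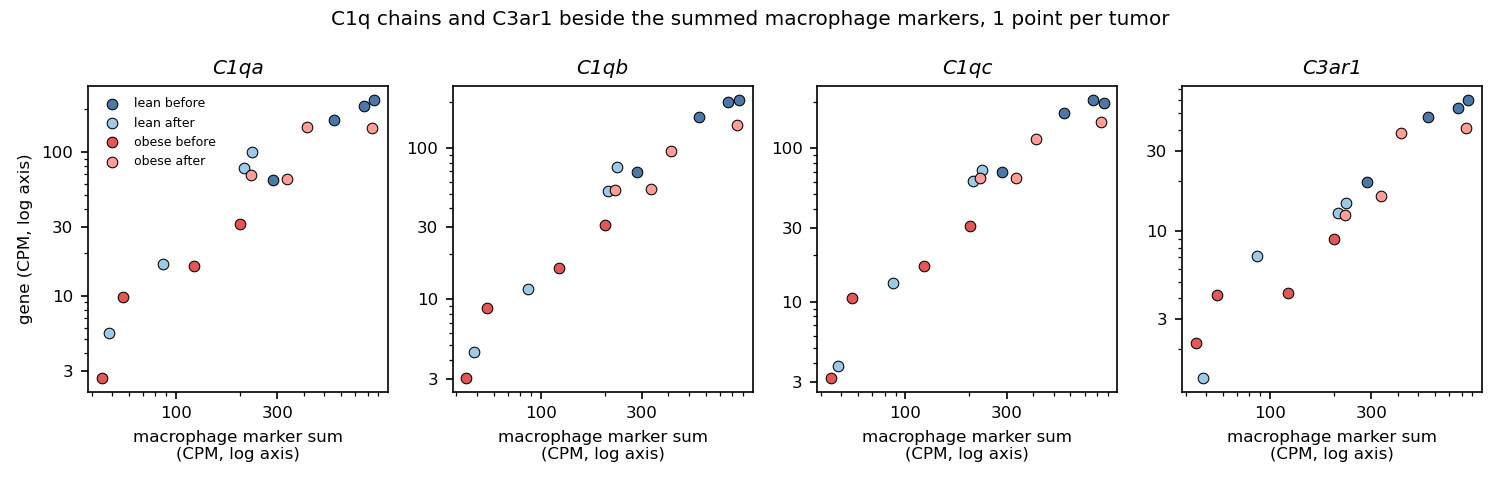
CPM of C1qa, C1qb, C1qc and C3ar1 against the summed CPM of 15 macrophage markers (both log axes), 1 point per tumor, colored by group. Lean tumors before therapy lie at sums of 285 to 861 CPM and obese tumors before therapy at 44.6 to 201 CPM.

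Markers of other cells and of the interferon response moved as well, and their part in the changes of C3, C4b, Cfb, Serping1 and Cd55 was not tested. The sum of 9 fibroblast markers had medians of 1196 CPM (546 to 2223) in lean tumors before therapy, 236 CPM (104 to 617) after ETS, 283 CPM (100.7 to 616) in obese tumors before therapy and 1410 CPM (626 to 5734) after ETS. By edgeR 5 of 9 fibroblast markers were lower after ETS in lean tumors and 9 of 9 higher in obese tumors. The sum of 20 interferon response genes had medians of 3312 CPM (2426 to 4227), 609 CPM (602 to 764), 238 CPM (181 to 277) and 681 CPM (500.5 to 699) in the same order of groups, with 14 of 20 called lower after ETS in lean tumors and 15 of 20 higher in obese tumors. The sum of 8 endothelial markers ranged from 114 to 375 CPM over all tumors, with 1 of 8 lower in lean and 6 of 8 higher in obese tumors after ETS. The sum of 8 melanocyte markers had medians of 21178 CPM (18102 to 22705), 24566 CPM (22836 to 26145), 13567 CPM (11185 to 15108) and 18256 CPM (10708 to 25154) in the order given for fibroblasts, and did not overlap between lean tumors before and after ETS or between the hosts before therapy. By edgeR 2 of 8 melanocyte markers were higher after ETS in lean tumors, 3 of 8 higher in obese tumors and 4 of 8 lower in obese than in lean tumors before therapy. Of all genes, 22.8% were called lower and 21.0% higher after ETS in lean tumors, and 21.2% higher in obese tumors. Before therapy 12.9% were called lower in obese tumors. The lean counts of endothelial and melanocyte markers were near these shares. Over the 16 tumors the log2 melanocyte sum correlated at r = 0.72 with C4b and at -0.23 to 0.32 with the other 8 genes, given as a description. C4b had a higher r, 0.77, with the log2 sum of interferon response genes. Its r was 0.57 with the macrophage, 0.52 with the endothelial and 0.38 with the fibroblast sum. The log2 fibroblast sum correlated at r = 0.90 with Cfb and Serping1, 0.89 with Cd55 and 0.81 with C3. With the C1q chains and C3ar1 its r was 0.78 to 0.80. For Cd55 this was above the r of 0.86 with the macrophage sum. The log2 interferon response sum correlated at 0.53 to 0.75 with the 8 genes other than C4b.

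The sum of 8 T cell markers had a median of 37.1 CPM (29.9 to 49.97) in lean tumors before therapy and stayed between 1.36 and 4.61 CPM in the other 12 tumors. Adipocyte markers, 7 genes, had medians of 22.7 CPM in lean tumors before therapy, 16.2 CPM after ETS, 45.9 CPM in obese tumors before therapy and 128 CPM after ETS. No neutrophil marker of 8 had a count above 0 in all tumors, and their sum was at most 32.1 CPM.

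Genes most like each member over the 16 tumors, by Pearson's r of log2 CPM and as a description, differed between the members. C1qb, C1qc and C3ar1 were each nearest to P2ry6 (r = 0.986, 0.989 and 0.985), and C1qa to Laptm5 (r = 0.982). C4b was nearest to its copy C4a (r = 0.995), then to Lgals3bp (0.971) and Ifit3b (0.970). Cfb was nearest to Dram1 (0.983) and Ifi205 (0.978), Serping1 to Ms4a4d (0.975) and Ly6a (0.975), and Cd55 to Dpp4 (0.955) and Vcan (0.937). C3 had the weakest best match, Olfm1 at 0.900. Among the members themselves, r ran from 0.26 between C3 and C4b to 0.997 between C1qb and C1qc.

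Of 50 other complement genes, 23 had a count above 0 in every tumor and were tested, and 22 had a mean of at least 1 CPM. By edgeR 9 of the 23 were called lower and 4 higher after ETS in lean tumors, and 20 of 23 were called higher in obese tumors. Before therapy 13 of 23 were lower and 1, Cd59a, higher in obese than in lean tumors, against 12.9% and 13.5% of all genes, and after ETS 2 of 23 were higher, against 3.28%. The difference between the changes in lean and obese tumors was called for 14 of 23, all in the direction of the 9 members. Of these calls, 4 were lost under some alternative. That of C2 was lost when 1 of 7 tumors was left out (adjusted p = 0.0502 to 0.0596 by edgeR), and that of Colec12 with 1 of 8 (0.052 to 0.0609). That of C1s1 was lost with limma-voom (adjusted p = 0.0663) and that of Masp1 with limma on log2(TPM + 1) (0.107). The shares of all genes in the other comparisons are those given for the members.

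Of 10 classical and lectin pathway genes tested, 2 were called lower after ETS in lean tumors and 9 higher in obese tumors. C1ra, which encodes C1r, ranged from 57.0 to 85.8 CPM in lean tumors before therapy and from 18.8 to 25.8 CPM after ETS, and from 6.13 to 9.45 CPM in obese tumors before and 12.8 to 39.8 CPM after. It fell by 1.60 ± 0.28 on the log2 scale in lean tumors (SE, adjusted p = 0.000491 by edgeR) and rose by 1.42 ± 0.28 in obese tumors (adjusted p = 0.00143). C1rb, a second C1r gene, fell by 1.54 ± 0.32 in lean tumors (adjusted p = 0.00154) and rose by 1.45 ± 0.33 in obese tumors (adjusted p = 0.00313). For C1s1, the C1s gene, the lean change was -0.71 ± 0.43 (adjusted p = 0.195) and the obese rise 1.72 ± 0.44 (adjusted p = 0.00704), which limma-voom did not call (1.16, adjusted p = 0.0609). Whether C1ra and C1s1 differ in the lean change was not tested.

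C2, which joins C4 in the classical convertase, was among the highest of the list, at 268 to 305 CPM in lean tumors before therapy and 41.6 to 90.0 CPM in obese tumors before therapy. Its lean change after ETS was -0.32 ± 0.30 (SE, log2 scale, adjusted p = 0.399 by edgeR), and it rose by 1.14 ± 0.31 in obese tumors (adjusted p = 0.00854). Lean tumors after ETS, at 194 to 254 CPM, lay wholly below those before therapy. The lean change of C2 was called lower on log2(TPM + 1) and with only the compared groups. The ratio of C2 to Cfb, genes with related proteins, had a median on the TPM scale of 4.93 in lean tumors before therapy, 42.2 in those after ETS, 20.7 in obese tumors before therapy and 6.74 in those after ETS. No 100-base stretch of the Cfb transcript occurred in that of C2. Masp1, a lectin pathway protease, rose by 3.2 ± 0.75 in obese tumors (adjusted p = 0.00404) and after ETS exceeded its level in lean tumors by 3.62 ± 0.77 (adjusted p = 0.0191), a call lost without lean tumor 3 or 4 after ETS (adjusted p = 0.0596 and 0.0605), on log2(TPM + 1) and with only the compared groups. Fcna, a ficolin, and Colec12, a collectin, rose in obese tumors by 3.25 ± 1.19 (adjusted p = 0.0404) and 2.53 ± 0.71 (adjusted p = 0.011). The call of Fcna was lost without obese tumor 1, 3 or 4 before therapy or after ETS, with adjusted p-values of 0.0511 to 0.0983.

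Cfp, properdin, which stabilises the alternative convertase, fell by 1.94 ± 0.62 in lean tumors (SE, log2 scale, adjusted p = 0.0188 by edgeR) and rose by 2.52 ± 0.64 in obese tumors (adjusted p = 0.00603), the fall being lost without lean tumor 1 before therapy or lean tumor 3 after ETS (adjusted p = 0.0523 and 0.0564). Of the terminal pathway, which forms the membrane attack complex, only C8g was tested, and it rose by 1.13 ± 0.29 in lean tumors (adjusted p = 0.00671) and also in obese tumors, by 1.07 ± 0.30 (adjusted p = 0.0115). The other 6 terminal genes had a count of 0 in at least 1 tumor, and C8b had a count of 0 in all 16.

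All 6 receptor genes tested were lower in lean tumors after ETS and lower in obese than in lean tumors before therapy, and 5 of the 6 were higher in obese tumors after ETS. Itgam and Itgb2, the chains of complement receptor 3 on myeloid cells, fell by 3.49 ± 0.69 (SE, log2 scale, adjusted p = 0.00113 by edgeR) and 2.58 ± 0.40 (adjusted p = 0.000181) in lean tumors and rose by 2.59 ± 0.67 (adjusted p = 0.00734) and 2.07 ± 0.40 (adjusted p = 0.00107) in obese tumors. Itgax, the alpha chain of a different complement receptor, stood at 9.996 to 24.1 CPM in lean tumors before therapy. In obese tumors before therapy Itgax was at 0.283 to 0.857 CPM, a difference of -5.00 ± 0.72 (adjusted p = 0.000145 by edgeR). C5ar1, the C5a receptor, exceeded its lean level in obese tumors after ETS by 2.29 ± 0.54 (adjusted p = 0.0297), a call lost without lean tumor 3 or 4 or obese tumor 4 after ETS (adjusted p = 0.065 to 0.089) and with only the compared groups (0.104). C5ar2 was rare, at a mean of 0.238 CPM over the 16 tumors and a count of at most 32. Its call between hosts before therapy was lost without lean tumor 1, 2 or 4 or obese tumor 1, 3 or 4 before therapy. The adjusted p-values by edgeR were then 0.0746 to 0.111. The rise of Itgax in obese tumors was lost without obese tumor 1, 3 or 4 before therapy or 1 or 2 after ETS (adjusted p = 0.0657 to 0.103).

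Of the 5 other regulators tested, 3 were called higher and none lower in lean tumors after ETS, and 4 were called higher in obese tumors. Cd59a, which blocks the membrane attack complex, stood at 3.87 to 4.13 CPM in lean tumors before therapy and at 13.5 to 14.3 CPM after ETS, a rise of 1.79 ± 0.21 on the log2 scale (SE, adjusted p = 2.57e-05 by edgeR). Clu, which binds the same complex in fluid, rose by 1.92 ± 0.29 in lean tumors (adjusted p = 0.000145), and Cd59b by 1.46 ± 0.24 (adjusted p = 0.000313). In obese tumors the rises were 0.93 ± 0.21 for Cd59a (adjusted p = 0.00306), 1.08 ± 0.28 for Clu (adjusted p = 0.00762) and 0.88 ± 0.24 for Cd59b (adjusted p = 0.00923). Cr1l, which encodes the convertase regulator Crry, had a log2 change of 0.11 ± 0.14 in lean tumors (adjusted p = 0.549) and rose by 0.39 ± 0.14 in obese tumors (adjusted p = 0.0342), a call lost without obese tumor 1, 3 or 4 before therapy or 1 or 2 after ETS (adjusted p = 0.0542 to 0.109). None of the 5 regulators was called for a difference between the changes in lean and obese tumors. That of Cd59a was 0.85 ± 0.29 (adjusted p = 0.0606) and was called in 5 of 23 alternatives, with DESeq2, filterByExpr, the replicate block and without obese tumor 4 before therapy or obese tumor 2 after ETS, with adjusted p-values of 0.0172 to 0.173 over all 23. That of Cr1l was called on log2(TPM + 1) alone (adjusted p = 0.0186). Cd46, a cofactor for the cleavage of C3b, was not called in any of the 5 comparisons. Its lean change after ETS, -1.20 ± 0.57 (adjusted p = 0.097 by edgeR), was called in 4 of 25 alternatives. These were limma-voom, limma on log2(TPM + 1) and the fits without lean tumor 1 before therapy or lean tumor 4 after ETS.

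**Figure D4:**
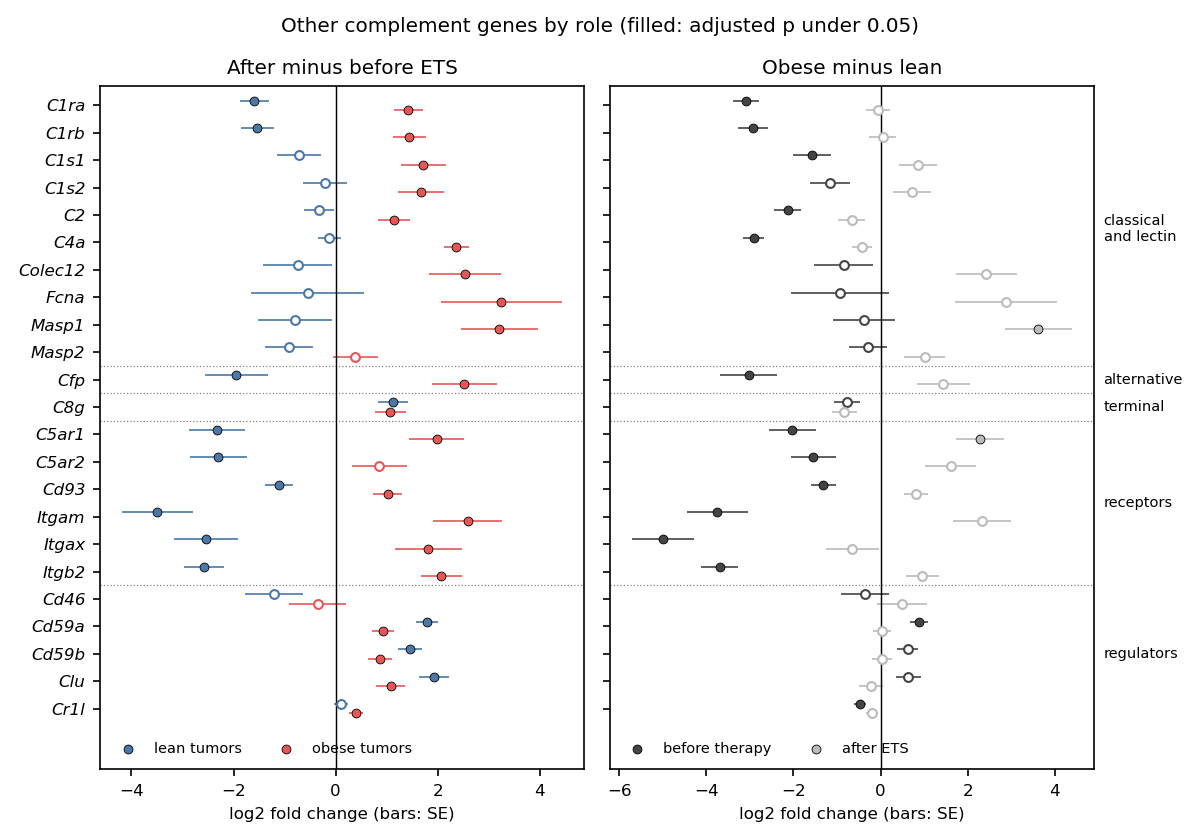
Log2 fold changes of the 23 other complement genes tested, grouped by role, with their SE as bars, after minus before ETS on the left and obese minus lean on the right, with filled points for an adjusted p under 0.05. All 6 receptors lie left of zero in lean tumors, from -3.49 to -1.11, while C8g, Cd59a, Cd59b and Clu lie right of zero in both hosts.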

How the data were processed

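RNA of 16 B16F10 tumors, 4 in each of 4 groups taken from the sample labels, had been sequenced by the authors from stranded poly(A) libraries with paired reads. The authors' processing notes name bcl2fastq 2.20.0, Trimmomatic, HISAT2 2.1.0 and StringTie 2.1.3b with the mm10 genome. The deposited counts are whole read counts per gene that the authors did not normalize or filter. The deposited TPM values were also made by StringTie and served for levels between genes and in an alternative. The FPKM values the authors deposited, 16 columns, were not used.

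The members, lists and tests were chosen with earlier results of these data known. As in the methods of the study, 29568 genes with zero counts in 1 or more tumors were left out, and 16209 of 45777 were tested with edgeR 4.0.16 (R 4.3.3) by the quasi-likelihood test after TMM scaling, with a mean per group, all 16 tumors and Benjamini-Hochberg adjustment over all genes. The 5 comparisons were ETS in each host, the difference between these changes and the hosts before therapy and after ETS. Log2 CPM used a prior count of 2. Ratios to marker sums were compared by exact permutation tests. All 9 genes were named, other complement genes by a mean of at least 1 CPM, and like genes as the 3 with the highest Pearson's r. C1s2, C5ar2, Cd59b and Masp2 lie below that level, and C5ar2, Cd59b and C8b were named after their values were seen.

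Alternatives were DESeq2's size factors, no exclusion of genes, filterByExpr, edgeR's exact test on counts plus 1, DESeq2 1.42.0, limma-voom with weights and limma on log2(TPM + 1) (limma 3.58.1), the compared groups alone, the replicate number as a block and each tumor left out. Identifiers of 45679 genes matched the GRCm38.p6 gene table. No pair of tumors agreed within sampling noise. P-values measure the spread between these tumors, which may be partly technical. The tests were tested on simulated data. The result of 1 listed gene is not reported here.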

Additional observations from a re-analysis of the deposited data

Results flagged for a closer look

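Of 36 gene and group sets of 4 tumors, 3 held a tumor far from the others by Dixon's test, and chance gives about 1 in 20. They were obese tumor 2 before therapy for Cfb, at 12.1 CPM against 1.98 to 3.48 CPM in the others, and for Serping1, at 13.5 CPM against 4.24 to 5.36 CPM, and lean tumor 2 after ETS for Cd55, at 0.859 CPM against 0.0716 to 0.178 CPM.

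The change after ETS differed between the hosts for all 9 genes in edgeR's test of that difference. Lean minus obese, it was -4.58 for C1qa, -4.69 for C1qb, -4.77 for C1qc, -4.79 for C3, -2.94 for C4b, -5.87 for Cfb, -4.98 for Serping1, -4.80 for C3ar1 and -5.61 for Cd55 on the log2 scale, with adjusted p-values of 0.000389 to 0.0159.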

How the results depend on the processing

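No member changed direction in any of the 5 comparisons under any alternative, and 26 of 33 calls held under all of them. The other 7 were C1qb and C1qc after ETS in lean tumors, C3 between hosts before therapy, and Cd55 in 4 comparisons. Their values are given beside the results. For the lean change, the difference between changes and the hosts before therapy, Cd55 lost its call on log2(TPM + 1) alone. At its low TPM, adding 1 shrinks a log2 change, and these losses cannot be told from that shrinking. Between hosts after ETS, the genes called numbered 904, against 450 without the exclusion of zeros, 1571 by the exact test, 2078 by DESeq2, 69 with the compared groups alone, 1683 with the replicate number as a block, and 185 (without lean tumor 4 after ETS) to 1340 (without obese tumor 2 after ETS) with a tumor left out. Members called there were 0, against 2 by the exact test, DESeq2, limma-voom, limma on log2(TPM + 1) and the replicate block, and 0 to 1 with a tumor left out. Other complement genes called there were 2, against 5 by the exact test, DESeq2 and limma-voom, 0 with the compared groups alone and 0 to 6 with a tumor left out. The cause was not tested. Leaving out a tumor turned the sign of small ratios to the macrophage sum, with ranges of -0.40 to 0.25 for C1qa after ETS in lean tumors and, between hosts after ETS, of -0.34 to 0.31 for C1qa, -0.19 to 0.41 for C1qb, -0.077 to 0.589 for C1qc and -0.21 to 0.30 for C3ar1. On log2(TPM + 1) the median of all genes shifted by -0.35 in lean tumors, -0.26 in the difference between changes, -0.13 before therapy and 0.13 after ETS, and the share of calls that were higher went from 48.0% to 15.7%, 38.7% to 9.24%, 51.0% to 29.0% and 58.7% to 83.8%. The tumors share only a number, with deviations of the same number correlating at -0.05 to 0.45. The block also called C1qa in lean tumors (adjusted p = 0.0318). The exact test gives no value for the difference between changes.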

Other observations

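The amount of TPM per CPM depends on the scaling of each tumor, which all genes share, and on the transcript length that the TPM values assume. It varied 3.61-fold between tumors for Cd55, from 0.139 to 0.502, against 1.55-fold to 1.63-fold for the other 8 genes. Cd55 is below 1 TPM on average in 3 of the 4 groups.

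Vsig4 and Cfd, complement genes with a mean of at least 1 CPM, had a count of 0 in some tumors and were not tested. Vsig4, a macrophage receptor for C3b, ranged from 0 to 1.61 CPM in lean tumors before therapy, from 0 to 0.74 CPM in lean tumors after ETS, from 0 to 1.0 CPM in obese tumors before therapy and from 1.94 to 5.24 CPM in obese tumors after ETS. Cfd, factor D, ranged from 0.09 to 2.87, 0 to 3.88, 0 to 1.68 and 0 to 4.96 CPM in the same order.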
